A study of Mus musculus with 2 samples.

Results

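Acta2, Tagln, Myh11, Cnn1, Mylk, Des, Pln, Myl9 and Tpm2 are contractile genes of mural cells, the cells that wrap blood vessels, and they are 9 of the 24130 genes listed in the deposited matrices. They were chosen by name, all 9 were listed, and their unique molecular identifiers (UMIs, counted molecules) were read in smooth muscle-like cells against pericyte-like cells and other cell types gated by markers. Hippocampal cells of male C57BL/6 mice, 6 months of age per the labels, were sequenced with the 10x protocol after papain dissociation. The EMF_AuNPs library came from mice that received gold nanoparticles in the hippocampus by stereotaxic injection and then 3 weeks in an electromagnetic field between Helmholtz coils. The mice of the control library received saline, and the labels do not make clear whether they were placed between the coils too. There was 1 library per group, the number of mice behind each is not stated, and the sample titles call the brain aged. No difference between the libraries therefore has a replicate check, none was tested, and all intervals are 95% intervals of counting error only. The series title names neurogenesis as its subject, and no question about vessels is stated.

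In smooth muscle cells, which ring arteries and arterioles, smooth muscle myosin pulls on actin filaments when calcium switches on myosin light chain kinase, which phosphorylates the regulatory light chain. Tropomyosin, calponin and transgelin bind the actin filament, desmin forms intermediate filaments that tie the apparatus together, and phospholamban restrains the calcium pump of the sarcoplasmic reticulum. Pericytes lie along capillaries, share the basement membrane with the endothelium, and are known to carry less of this machinery than arterial smooth muscle.

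There were 7003 EMF_AuNPs barcodes with 19544686 UMIs and 21583 control barcodes with 51091452 UMIs, at medians of 2310 and 1904 UMIs per barcode. In all, 38 barcodes occurred in both libraries, 1 and 3 of them in smooth muscle-like cells. A cell was called smooth muscle-like when it held at least 7 of 20 smooth muscle markers and at least 3 of 14 mural markers, and pericyte-like with at least 5 of 11 pericyte markers and the same mural minimum. None of the 9 genes was used for a gate. This gave 117 EMF_AuNPs and 200 control smooth muscle-like cells, with 362527 and 417386 UMIs and medians of 3021 and 2072.5 UMIs per cell. There were 146 and 286 pericyte-like cells, with 251449 and 359611 UMIs and medians of 1643.5 and 1242 UMIs per cell. Cells that met the gates of more than 1 lineage were set aside as possible doublets, 684 EMF_AuNPs and 2741 control cells. Of these, 197 and 666 met a mural gate, and 157 and 532 met both a mural and the endothelial gate.

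The gates themselves raise the sums of their own markers, which are given as a description. As UMIs scaled to a total of 1000000 per type (CPM), smooth muscle markers summed to 17268 CPM in EMF_AuNPs and 21484 in control smooth muscle-like cells, against 3102 and 3248 CPM in pericyte-like cells, and pericyte markers summed to 3790 and 3733 CPM in the first type against 41507 and 32755 CPM in the second. Of the smooth muscle markers, Casq2 (55.2 and 95.8 CPM against 223 and 225 CPM) and Gper1 (245 and 292 CPM against 533 and 439 CPM) were nonetheless lower in smooth muscle-like than in pericyte-like cells. RNA of other types was present in both, and several of its sums differed between the libraries. In smooth muscle-like cells, red blood cell markers summed to 9859 CPM in EMF_AuNPs and 3510 CPM in control, with 1 and 2 of 6 markers at 0. Oligodendrocyte markers summed to 2411 and 1131 CPM with 0 of 12 at 0, fibroblast markers to 1536 and 836 CPM with 4 and 3 of 12 at 0 (Lum, encoding lumican, and Slc6a13 in both libraries), and choroid plexus markers to 5321 and 8366 CPM with 4 and 2 of 11 at 0. In pericyte-like cells the same lists summed to 9974 and 1554 CPM, 4633 and 2099 CPM, 3428 and 2336 CPM, and 6315 and 15664 CPM. Astrocyte markers summed to 4634 and 5130 CPM in smooth muscle-like and 7417 and 7708 CPM in pericyte-like cells, microglia markers to 924 and 652 CPM and to 1770 and 790 CPM, and endothelial markers to 913 and 810 CPM and to 1531 and 1507 CPM. The part of these differences in the results that follow was not tested.

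All 9 genes had their highest level in smooth muscle-like cells in both libraries, among 11 types with at least 30 cells in each. Together they made up 5.21% of the UMIs of EMF_AuNPs smooth muscle-like cells (interval 5.14 to 5.28%) and 5.02% of those of control cells (4.95 to 5.09%). In pericyte-like cells they made up 0.292% and 0.279%, in fibroblast-like cells 0.0614% and 0.0407%, in ependymal-like cells 0.0493% and 0.0630%, and in endothelial-like cells 0.0248% and 0.0265%. Astrocyte-like cells, which are not contractile, held 0.0116% and 0.0133%, and choroid plexus-like cells held 0.00429% and 0.00301%.

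**Figure D1:**
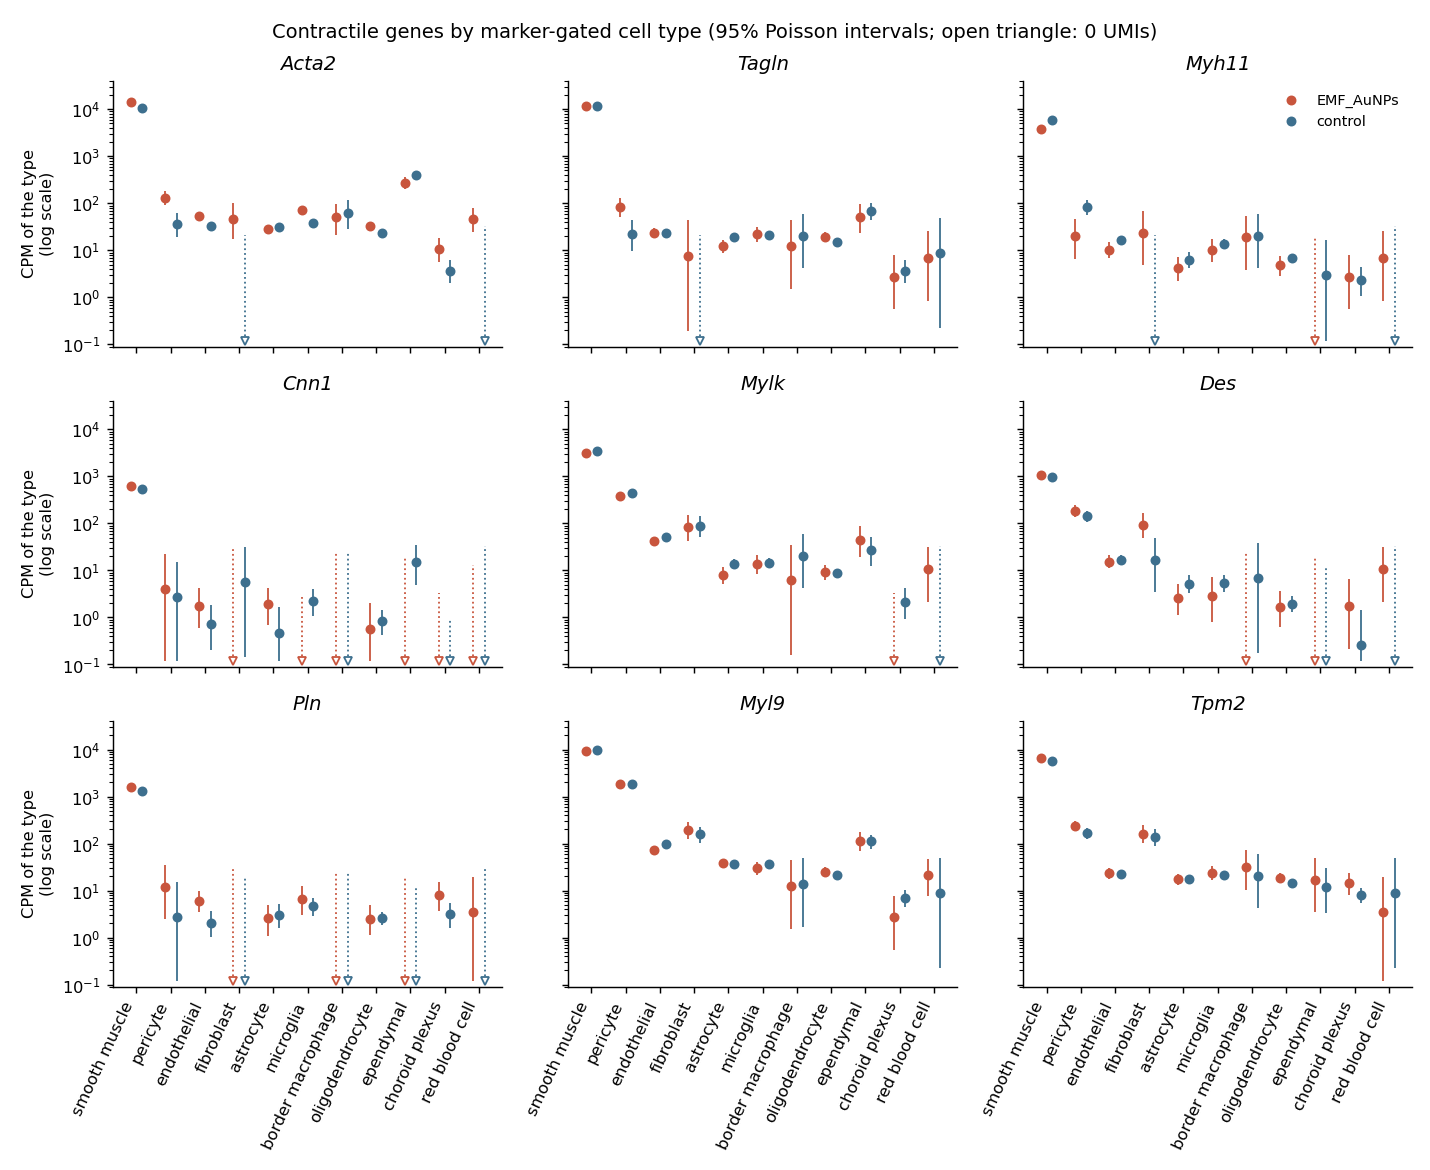
CPM (log scale) of each contractile gene in 11 marker-gated types, EMF_AuNPs left of control, with 95% Poisson intervals cut at the axis; open triangles mark 0 UMIs and the dotted line runs to the upper limit. Smooth muscle-like cells stand highest in every panel, and Myl9, Mylk and Des also stand above the remaining types in pericyte-like cells.

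Of the actin filament genes, Acta2, Tagln and Cnn1 had larger ratios of smooth muscle-like over pericyte-like cells than Tpm2 in both libraries. Acta2, which encodes smooth muscle alpha-actin (chr19:34241090-34255590, mm10, minus strand), had 5266 UMIs (14526 CPM) in EMF_AuNPs and 4527 UMIs (10846 CPM) in control smooth muscle-like cells. Pericyte-like cells held 33 UMIs (131 CPM) and 13 UMIs (36.2 CPM) of it, so that the log2 ratio of smooth muscle-like over pericyte-like cells was 6.78 (6.30 to 7.33) in EMF_AuNPs and 8.19 (7.45 to 9.14) in control. Tagln, encoding transgelin (SM22-alpha; chr9:45929619-45936058, minus strand), had 11519 and 11766 CPM in smooth muscle-like cells against 83.5 and 22.2 CPM in pericyte-like cells, ratios of 7.09 and 8.98. Tagln shares 108 bases with Pcsk7 on the other strand, which had 6 and 9 UMIs in smooth muscle-like cells. Cnn1, encoding calponin (chr9:22099216-22109630, plus strand), had 228 and 222 UMIs in smooth muscle-like cells and 1 UMI in pericyte-like cells of each library, with ratios of 6.98 (4.81 to 12.6) and 7.14 (5.09 to 12.9). Tpm2, encoding beta-tropomyosin (chr4:43514711-43523765, minus strand), had 6468 and 5705 CPM in smooth muscle-like cells against 239 and 164 CPM in pericyte-like cells, with ratios of 4.75 (4.39 to 5.16) and 5.11 (4.75 to 5.52).

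The myosin genes split between the types. Myh11, the smooth muscle myosin heavy chain (chr16:14194535-14291372, minus strand), had 3884 CPM in EMF_AuNPs and 5966 CPM in control smooth muscle-like cells, against 19.9 CPM (5 UMIs) and 83.4 CPM (30 UMIs) in pericyte-like cells. Its ratio was 7.54 (6.38 to 9.23) in EMF_AuNPs and 6.14 (5.64 to 6.73) in control, the reverse of the order of the libraries for Acta2 and Tagln. Myl9, the regulatory light chain that the kinase phosphorylates (chr2:156775420-156781658, plus strand), had the smallest ratio of the 9, with 9241 and 9634 CPM in smooth muscle-like cells against 1857 and 1885 CPM in pericyte-like cells. That is 4.98-fold (4.52 to 5.49) in EMF_AuNPs and 5.11-fold (4.71 to 5.55) in control. Mylk, the kinase itself (chr16:34745210-35002420, plus strand), had 3169 and 3438 CPM in smooth muscle-like cells against 390 and 448 CPM in pericyte-like cells, ratios of 3.02 (2.73 to 3.34) and 2.94 (2.71 to 3.19) on the log2 scale.

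Desmin, the intermediate filament protein, followed the light chain more than the actin genes. Des (chr1:75360329-75368579, plus strand) had 1056 and 994 CPM in smooth muscle-like cells against 187 and 142 CPM in pericyte-like cells, ratios of 2.49 (2.06 to 2.97) and 2.80 (2.39 to 3.26). Pln, encoding phospholamban (chr10:53337667-53345987, plus strand), had 590 and 549 UMIs (1627 and 1315 CPM) in smooth muscle-like cells and 3 and 1 UMIs in pericyte-like cells. Its ratios of 6.98 (5.54 to 9.37) and 8.44 (6.40 to 14.2) rest on those few pericyte UMIs. Pln lies within the span of Cep85l, which is read from the other strand and had 0 and 9 UMIs in smooth muscle-like cells.

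All 9 genes were at least 2-fold higher in smooth muscle-like than in pericyte-like cells of both libraries. Of all genes with at least 30 UMIs over the 2 types, 11.1% were in EMF_AuNPs and 9.26% in control. At least 8-fold, 7 of the 9 stood higher in EMF_AuNPs, with a background of 3.07%, and 6 of the 9 in control, with a background of 2.44%. The median log2 ratio of the 9 was 6.78 in EMF_AuNPs and 6.14 in control, against -0.14 and -0.21 over all genes. Myl9 and Des were under 8-fold in both libraries and Mylk in control alone, where it was 7.68-fold, against 8.13-fold in EMF_AuNPs.

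**Figure D2:**
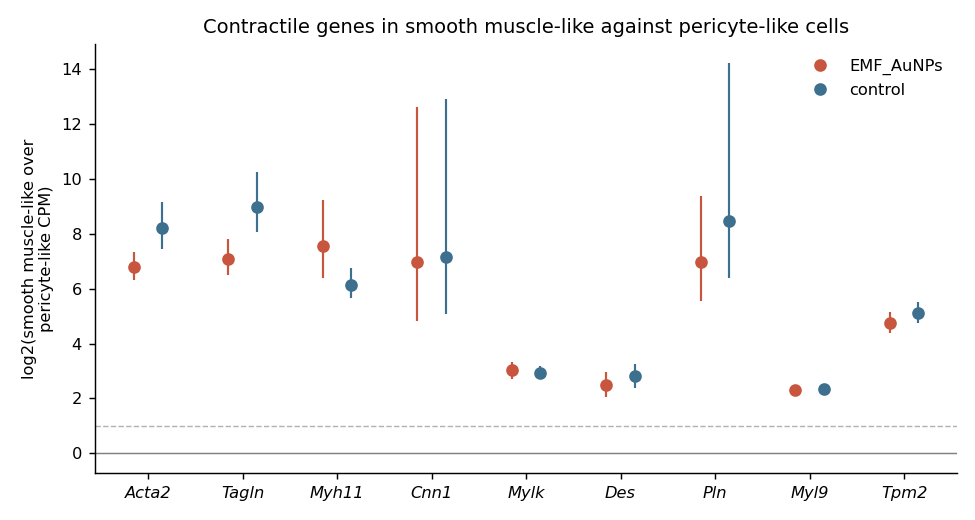
log2 ratio of smooth muscle-like over pericyte-like CPM for each gene, EMF_AuNPs left of control, with exact 95% counting intervals; the dashed line marks 2-fold. Myl9, Des and Mylk lie between 2.31 and 3.02, Tpm2 near 5, and Acta2, Tagln, Myh11, Cnn1 and Pln between 6.14 and 8.98.

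The promoters of Acta2 and Myl9 are shown because the first gene is scarce in pericyte-like cells and the second is abundant there. RefSeq (GRCm38.p6) gave the 250 bases before the annotated start of 7 of the 9 genes, with no entry for Tagln and Myh11. These starts differ from the GENCODE spans given above. The window of Mylk (chr16:34784700-34784949) lies wholly inside the GENCODE span, and those of Acta2 and Tpm2 lie mostly inside it. Those of Myl9, Cnn1 and Pln reach into it in part. The windows are therefore upstream of the RefSeq start only. They were searched for the CArG box, the element bound by serum response factor, which reads the same on both strands and was searched by its consensus, exactly and with 1 mismatch. Capitals mark each match with at most 1 mismatch, and both runs are written on the strand of the gene.
Acta2 (chr19:34255374-34255623, minus strand): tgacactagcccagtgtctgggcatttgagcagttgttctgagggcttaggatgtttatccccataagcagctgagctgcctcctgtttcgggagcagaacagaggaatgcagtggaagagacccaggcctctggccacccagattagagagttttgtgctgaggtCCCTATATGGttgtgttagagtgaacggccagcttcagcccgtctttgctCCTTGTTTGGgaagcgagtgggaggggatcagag
Myl9 (chr2:156775214-156775463, plus strand): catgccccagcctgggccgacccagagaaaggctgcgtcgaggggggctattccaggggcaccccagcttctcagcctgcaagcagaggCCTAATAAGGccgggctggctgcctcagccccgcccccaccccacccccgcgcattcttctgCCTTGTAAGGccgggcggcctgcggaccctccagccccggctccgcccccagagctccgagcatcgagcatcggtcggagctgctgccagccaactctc
The Acta2 window held 2 matches with 1 mismatch each, CCCTATATGG starting 84 bases and CCTTGTTTGG starting 34 bases before the RefSeq start. The Myl9 window held 1 exact match, CCTAATAAGG, starting 161 bases before the start, and CCTTGTAAGG, with 1 mismatch, 99 bases before it. The windows of Cnn1, Mylk, Des, Pln and Tpm2 held none. An exact match was in 1 of the 7 windows, against 1.47% of 32851 promoters of the same length, and a match with at most 1 mismatch in 2 of the 7, against 18.6%. A match of letters does not show that the factor binds there, and no match concerns this window alone.

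Most UMIs of the 9 genes lay in smooth muscle-like cells and in the cells set aside. Smooth muscle-like cells, 1.67% and 0.933% of the kept cells, held 61.0% of all UMIs of the 9 genes in EMF_AuNPs (60.5 to 61.5%) and 48.3% in control (47.8 to 48.7%). Cells with markers of more than 1 lineage held 23.2% and 33.2%. For single genes, the share in smooth muscle-like cells went up to 68.5% for Tagln in EMF_AuNPs and 63.8% for Cnn1 in control, and down to 48.7% for Des in EMF_AuNPs and 35.7% for Mylk in control.

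Between the libraries, the contractile genes of smooth muscle-like cells were alike in sum, while Myh11 stood lower and Acta2 higher in EMF_AuNPs. Myh11 was the 1 gene of the 9 past 1.5-fold with all cells of the gate, at 1408 UMIs (3884 CPM) in EMF_AuNPs and 2490 UMIs (5966 CPM) in control, and its log2 ratio of EMF_AuNPs over control, computed after adding 1 CPM to each, was -0.62 (-0.71 to -0.52). Acta2 lay on the other side, with a log2 ratio of 0.42 (0.36 to 0.48), which is under 1.5-fold. So 0 of 9 were at least 1.5-fold higher and 1 of 9 lower, against 16.8% higher and 13.2% lower (30.0% in either direction) of the 3797 genes with at least 30 UMIs over both libraries. Among the 252 genes with at least 400 UMIs, as each of the 9 has, 7.54% were higher and 9.13% lower, 16.7% in either direction. The share of the 9 genes past 1.5-fold, 1 of 9, is thus not above the background.

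The other actin filament genes differed by less than 1.5-fold. Tpm2 had a log2 ratio of 0.18 (0.10 to 0.26), Cnn1 0.24 (-0.03 to 0.51) and Tagln -0.03 (-0.09 to 0.03). Among the myosin genes, Mylk stood at -0.12 (-0.23 to -0.0044) and Myl9 at -0.06 (-0.13 to 0.0064), so that kinase and light chain differed by less than the heavy chain. Des stood at 0.09 (-0.12 to 0.29) and Pln at 0.31 (0.14 to 0.48). In cells of 3000 UMIs or more, a split added after the data were seen, Pln was past 1.5-fold at 0.73. The directions of Cnn1, Des and Tagln turned in 2 of 13, 1 of 13 and 3 of 12 alternatives, with ratios of down to -0.46 for Cnn1 and -0.29 for Des and up to 0.15 for Tagln. Those of Mylk and Myl9 turned in 2 of 13 and 3 of 13, with ratios of up to 0.02 and 0.11. The median of the 9 was 0.09, against 0.05 over all genes.

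Set against each other within the 9, which needs no scaling of the libraries, Acta2 supplied 27.9% of the UMIs of the 9 genes in EMF_AuNPs (27.2 to 28.5%) and 21.6% in control (21.1 to 22.2%). Myh11 supplied 7.45% (7.08 to 7.84%) and 11.9% (11.4 to 12.3%). Besides these 2, Tpm2 supplied 12.4% and 11.4% and Pln 3.12% and 2.62%, while Tagln supplied 22.1% and 23.4%, Myl9 17.7% and 19.2% and Mylk 6.08% and 6.85%. The intervals of the libraries overlap for Cnn1 and Des alone. They hold counting error only, on 18895 and 20951 UMIs of the 9 genes, so small shifts also part them. How often the shares of other genes part was not computed, so no result about the 9 is read from this. The direction of Myh11 was the same in cells of 1000 to 3000 UMIs and in cells of 3000 UMIs or more, splits added after the data were seen, where its log2 ratios were -0.86 and -0.77, and those of Acta2 0.28 and 0.58. In cells taken by Leiden clusters made without the 9 genes, 160 EMF_AuNPs and 304 control cells, Myh11 stood at -0.40, under 1.5-fold.

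**Figure D3:**
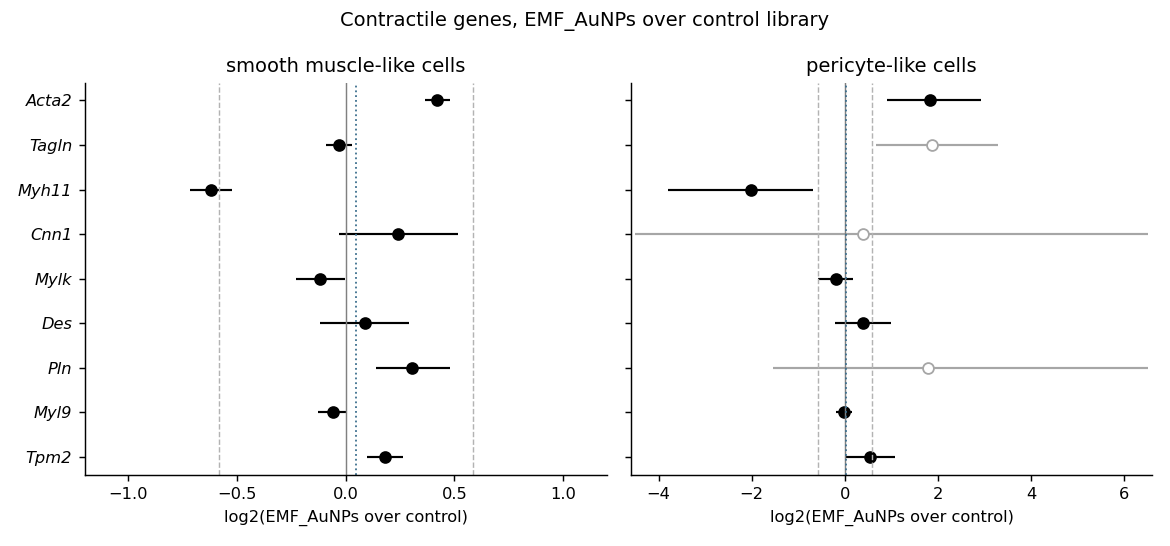
log2 ratio of EMF_AuNPs over control for each gene in smooth muscle-like cells (left) and pericyte-like cells (right), with exact 95% counting intervals cut at the axis; dashed lines mark 1.5-fold, the dotted line the median of all genes, and open grey points genes under 30 UMIs. Myh11 lies left of the lower dashed line in both panels, and the pericyte intervals are far wider, on the wider axis of that panel.

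In pericyte-like cells Myl9, Mylk, Des and Tpm2, the genes with most UMIs there, differed by less than 1.5-fold between the libraries. Myl9 had 467 UMIs (1857 CPM) in EMF_AuNPs and 678 UMIs (1885 CPM) in control, a log2 ratio of -0.02 (-0.19 to 0.15), and Mylk had 98 and 161 UMIs, a ratio of -0.20 (-0.58 to 0.17). Des had 47 and 51 UMIs (187 and 142 CPM), a ratio of 0.40 (-0.20 to 1.00), and Tpm2 had 60 and 59 UMIs (239 and 164 CPM), a ratio of 0.54 (-0.0025 to 1.08). The intervals of all 4 hold 0. With 1 fewer marker asked for, the ratio of Des was 0.73, past 1.5-fold.

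The genes typical of smooth muscle were scarce there and differed more, on few molecules. Acta2 had 33 UMIs in 21 of 146 EMF_AuNPs cells and 13 UMIs in 8 of 286 control cells, a log2 ratio of 1.83 (0.90 to 2.91). Myh11 had 5 UMIs in 5 cells and 30 UMIs in 23 cells, a ratio of -2.02 (-3.79 to -0.69). Tagln, at 21 and 8 UMIs, fell under the minimum of 30 UMIs, as did Cnn1 and Pln. Of the 6 genes above it, 1 was higher and 1 lower, against 15.3% and 14.8% (30.0% in either direction) of 3578 genes. With 1 more marker asked for in every gate, the ratio of Acta2 turned to -0.41 and that of Tagln to -0.87, so their direction in pericyte-like cells depended on the gate. Myh11 stayed below 0 in all 10 alternatives, between -2.15 and -0.48.

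The share of cells with a UMI, at 1 depth, was far above that of microglia-like cells for Myl9, Mylk and Des in pericyte-like cells, and not for Acta2. Cells were thinned to 1000 UMIs, with 8 EMF_AuNPs and 59 control pericyte-like cells too shallow and left out. Myl9 was then found in 80.4% of EMF_AuNPs (72.8 to 86.7%) and 81.1% of control pericyte-like cells (75.3 to 85.9%), against 2.44% and 2.84% of microglia-like cells, which should lack it. Mylk was found in 30.4% and 35.7%, against 0.750% and 1.05% of microglia-like cells, Des in 16.7% and 12.3%, against 0.188% and 0.662%, and Tpm2 in 14.5% and 16.3%, against 3.19% and 2.06%. Acta2 was found in 9.42% of EMF_AuNPs pericyte-like cells (5.11 to 15.6%) and 2.64% of control ones (0.976 to 5.66%), intervals that overlap those of microglia-like cells, 6.38% (4.46 to 8.80%) and 3.04% (2.41 to 3.78%), so no difference in share is read from them. By CPM over all UMIs, Acta2 stood at 131 (90.3 to 184) in EMF_AuNPs pericyte-like cells, above the 71.9 (58.4 to 87.5) of microglia-like cells, and at 36.2 and 38.1 CPM in control. Without thinning, Acta2 was in 14.4% and 2.80% of pericyte-like cells, at median depths of 1643.5 and 1242 UMIs. Myh11 was found in 2.90% of EMF_AuNPs (0.795 to 7.26%) and 7.93% of control pericyte-like cells (4.77 to 12.2%), against 0.750% and 0.818% of microglia-like cells.

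Outside the mural cells, the sign of the log2 ratio of EMF_AuNPs over control varied with the type for Acta2 and rested on few UMIs for Myh11, at levels far below those of smooth muscle-like cells. Myh11 had 10.4 and 16.7 CPM in endothelial-like cells, a ratio of -0.63 (-1.34 to -0.06). Its ratios were -0.51 in astrocyte-like, -0.41 in microglia-like and -0.44 in oligodendrocyte-like cells, whose intervals hold 0, and each of the other 5 types had 0 to 9 UMIs per library. Acta2 had 53.5 and 33.2 CPM in endothelial-like cells (0.67), 71.9 and 38.1 CPM in microglia-like cells (0.90) and 32.4 and 23.6 CPM in oligodendrocyte-like cells (0.44), all with intervals above 0. Intervals above 0 were also found in choroid plexus-like (12 and 14 UMIs, 1.32), fibroblast-like (6 and 0 UMIs) and red blood cell-like cells (13 and 0 UMIs). The ratio of Acta2 was below 0 in astrocyte-like (-0.13), border macrophage-like (-0.30) and ependymal-like cells (-0.55). Of these the interval of ependymal-like cells alone lies below 0. In choroid plexus-like, fibroblast-like, red blood cell-like and border macrophage-like cells Acta2 was under 30 UMIs. How much of these UMIs is free RNA of smooth muscle cells was not tested.

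Ependymal-like cells, the ciliated lining of the ventricles, held the second highest level of Acta2 in both libraries. There were 42 EMF_AuNPs and 94 control cells, and Acta2 had 48 UMIs (269 CPM, 198 to 356) in EMF_AuNPs and 131 UMIs (393 CPM, 329 to 466) in control. The log2 ratio of EMF_AuNPs over control was -0.55 (-1.06 to -0.06), under 1.5-fold and opposite in sign to that of smooth muscle-like cells. It was found in 21 of 42 and 44 of 94 cells, and after thinning in 28.6% (14.6 to 46.3%) and 20.2% (12.4 to 30.1%), above the microglia-like shares. Tagln had 9 and 23 UMIs there (50.4 and 69.0 CPM) and Myl9 20 and 37 UMIs (112 and 111 CPM), and Mylk had 8 and 9, Tpm2 3 and 4, Cnn1 0 and 5 and Myh11 0 and 1 UMIs. Des and Pln had 0 in both libraries, which allows up to 16.8 and 9.00 CPM of each.

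Fibroblast-like cells held the third highest level of Myl9, Tpm2 and Mylk in both libraries. Myl9 had 194 CPM (25 UMIs) in 42 EMF_AuNPs and 158 CPM (28 UMIs) in 85 control cells. Tpm2 had 163 and 136 CPM, and Mylk 85.5 and 90.4 CPM (11 and 16 UMIs). For Myl9 and Mylk the intervals overlap those of the next lower type in both libraries. For Tpm2 the intervals of fibroblast-like and pericyte-like cells overlap in both libraries. No ratio of these 2 types was computed, so no difference between them is read. Acta2 had 6 UMIs in EMF_AuNPs and 0 in control fibroblast-like cells, where 0 allows up to 16.9 CPM.

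Within the smooth muscle-like type, single cells varied widely in both libraries. After thinning to 1000 UMIs, which 116 EMF_AuNPs and 197 control cells reached, the 9 genes together had a median of 50 UMIs per cell (14 to 98) and 51 UMIs (3 to 99). Acta2 had a median of 13 UMIs (quartiles 10 and 17) in EMF_AuNPs and 10 (7 and 14) in control, and Myh11 had 3 (2 and 6) and 5 (3 and 8). The cells of the libraries overlapped for both genes, from 4 to 40 against 0 to 38 for Acta2 and from 0 to 15 against 0 to 20 for Myh11. Medians were 11 and 11 for Tagln, 9 and 10 for Myl9, 6 and 6 for Tpm2, 3 and 3 for Mylk, 2 and 1 for Pln, 1 and 1 for Des and 0 and 0 for Cnn1.

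Acta2 and Tagln were found in all 116 EMF_AuNPs cells and in 195 of 197 control cells at that depth, and Cnn1 in 41 and 59 cells, 35.3% and 29.9%. At least 5 of the 9 genes were detected in each EMF_AuNPs cell, and 3 control cells had fewer. The 36 pairs of genes had Spearman correlations across cells with a median of 0.223 (-0.0648 to 0.496) in EMF_AuNPs and 0.252 (-0.0089 to 0.539) in control, 35 of 36 above 0 in each, and of 0.294 and 0.539 for Acta2 with Tagln, as a description over cells that share a library and a fixed depth. The variance was 3.01 and 3.05 times the mean for Acta2, 2.29 and 2.64 times for Myh11, and 1.05 and 1.64 times for Mylk. This quantity can grow with the mean, which was 14.1 and 10.9 UMIs for Acta2 against 2.87 and 3.41 UMIs for Mylk. The genes are therefore not ranked by it.

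**Figure D4:**
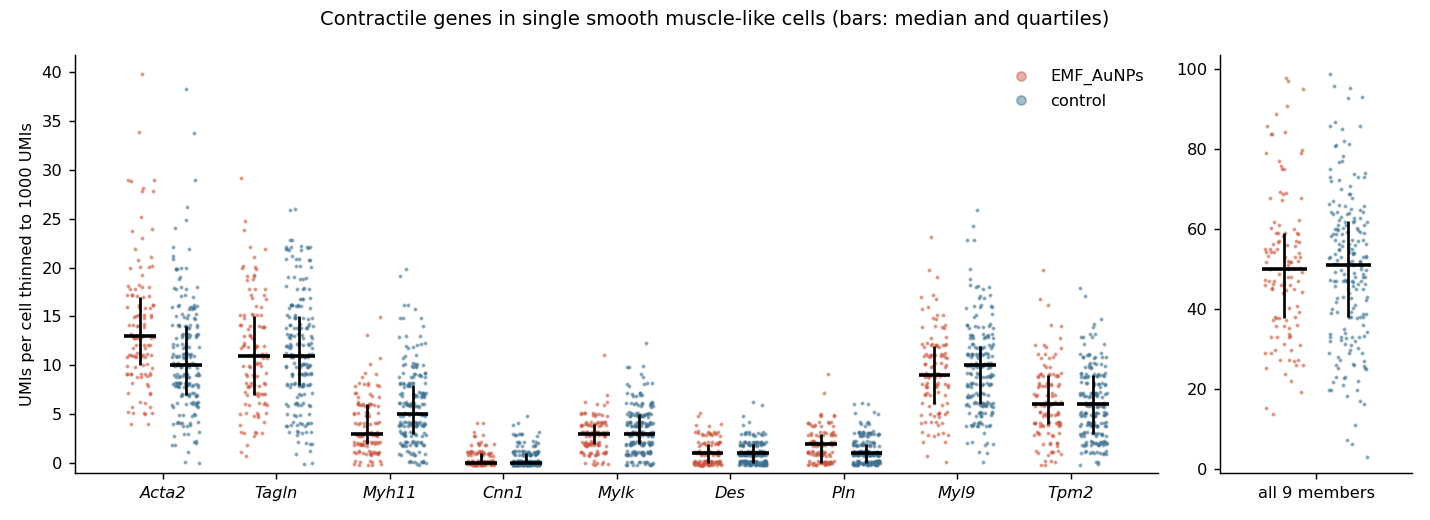
UMIs per smooth muscle-like cell after thinning to 1000 UMIs for each gene (left) and for the 9 together (right), EMF_AuNPs left of control; each point is a cell, shifted at random by up to 0.25 UMIs so that points do not hide each other, and bars give the median and quartiles. The clouds overlap for every gene, with medians of 13 and 10 for Acta2 and 3 and 5 for Myh11.

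Across mural cells grouped by smooth muscle markers, the contractile genes rose mostly between neighbouring groups that also differed in pericyte markers. Mural cells that met no other gate were thinned to 1000 UMIs and grouped by the number of smooth muscle markers detected, and the 9 genes together had 2.40 UMIs per cell in EMF_AuNPs and 2.24 in control at 0 markers (10 and 21 cells). They had 3.32 and 2.23 UMIs at 1 marker, 3.93 and 2.88 at 2 markers, and 9.14 and 7.55 at 3 to 4 markers. At 5 to 6 markers they had 46.8 and 35.6 UMIs, and at 7 or more 48.1 and 48.7 (75 and 139 cells). The large step was therefore between 3 to 4 and 5 to 6 markers in both libraries. Over the same step the mean number of pericyte markers fell from 4.78 to 1.28 in EMF_AuNPs and from 4.97 to 1.88 in control. The median of the 9 genes per cell went from 3 to 49.5 UMIs and from 3 to 35 UMIs. The groups thus differ in mural type too, and an onset within 1 type was not tested.

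Single genes took that step differently. Myl9 was present from the start, at 1.8 and 1.52 UMIs per cell at 0 markers, and reached 9.15 and 9.52 at 7 or more. Acta2 had no UMI at 0 markers, 2.09 and 1.33 at 3 to 4 markers, and 13.1 and 10.7 at 7 or more. Myh11 had no UMI at 0 markers, 0.734 and 0.481 at 3 to 4 markers, and 3.84 (3.41 to 4.31) and 5.58 (5.20 to 5.99) at 7 or more, where the intervals of the libraries do not overlap. The 15 EMF_AuNPs and 15 control cells that met both mural gates had 3844 and 4407 CPM of Acta2, between the 2 types.

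**Figure D5:**
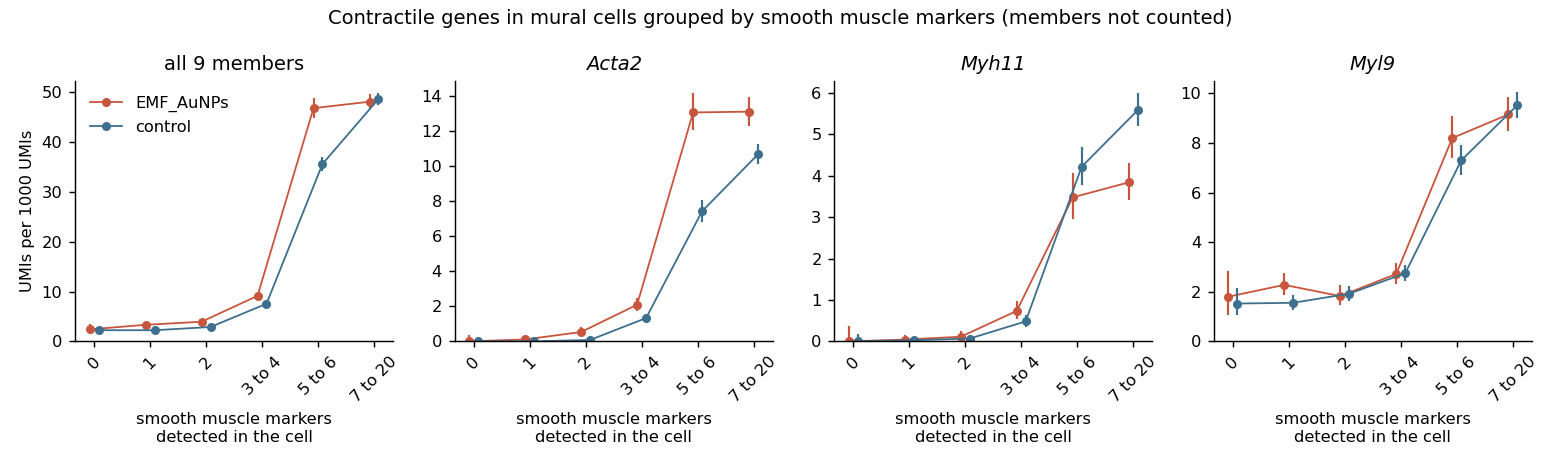
UMIs per cell thinned to 1000 UMIs (mean, 95% Poisson interval) against the number of smooth muscle markers detected in the cell, for the 9 genes together, Acta2, Myh11 and Myl9, EMF_AuNPs drawn left of control. All rise most between 3 to 4 and 5 to 6 markers, and Myl9 starts above 1 UMI.

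Beyond the 9, 87 other genes of the contractile pathway were listed in 5 groups, and 69 had at least 30 UMIs in smooth muscle-like cells. Of these 5 were at least 1.5-fold higher and 12 lower in EMF_AuNPs, with a median log2 ratio of -0.07, where the background over all genes is 16.8% and 13.2%, as above. In pericyte-like cells 7 of 55 were higher and 9 lower, against a background of 15.3% and 14.8%. Between the types, 30 of the 69 were at least 2-fold higher in smooth muscle-like than pericyte-like cells in both libraries. Tpm1, Actn1, Palld, Nexn and Csrp2 were among the 12 of 20 actin and thin filament genes. The 69 were kept by their UMIs in smooth muscle-like cells, which favours genes high there. Of the 55 kept by their UMIs in pericyte-like cells, 13 were at least 2-fold higher in smooth muscle-like cells of both libraries. The background, 11.1% in EMF_AuNPs and 9.26% in control, covers genes kept by the UMIs of both types together, in each library alone. Neither count is therefore set against it. Lmod1 and Mrvi1, also among the 30, are smooth muscle gate markers, so the gate itself favours their excess.

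Among thin filament and cytoskeleton genes, 1 of 20 was higher and 1 lower. Tpm1, encoding alpha-tropomyosin, had 4800 CPM in EMF_AuNPs and 8977 CPM in control smooth muscle-like cells, a log2 ratio of -0.90 (-0.99 to -0.82), while its partner Tpm2 stood at 0.18. Actg1, a cytoplasmic actin, had 1255 and 829 CPM (0.60), and Actb, the other cytoplasmic actin, 8228 and 7657 CPM (0.10). The ratio of Actg1 was similar in pericyte-like (0.56) and astrocyte-like cells (0.60), and 0.03 in fibroblast-like cells. Tpm1 was also lower in pericyte-like (-0.71), endothelial-like (-0.77), astrocyte-like (-0.60) and microglia-like cells (-0.67).

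Among myosins, their kinases and their phosphatase, 1 of 14 was higher and 2 lower. Ppp1cb, the catalytic subunit of myosin phosphatase, had 601 CPM in EMF_AuNPs and 196 CPM in control, a log2 ratio of 1.61 (1.24 to 2.0), while Ppp1r12a, which targets it to myosin, had a ratio of -0.63. In the other 10 types the ratio of Ppp1cb was 0.82 in red blood cell-like to 2.02 in astrocyte-like cells. Its interval holds 0 in red blood cell-like cells and in fibroblast-like and border macrophage-like cells, and the last 2 are under 30 UMIs. Rock2, a kinase that restrains the phosphatase, had 177 and 280 CPM (-0.66). It was also lower in endothelial-like (-0.69), astrocyte-like (-0.63), microglia-like (-0.74) and oligodendrocyte-like cells (-0.92), and stood at -0.13 in pericyte-like cells. Myl6, the essential light chain, had 9310 and 9526 CPM (-0.03).

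Calcium and channel genes had 1 higher and 2 lower of 11. Kcna5, a voltage-gated potassium channel, had 29 and 15 UMIs (1.13), and Cacna1c, the pore of the L-type calcium channel, 16 and 36 UMIs (-0.95). Atp2a2, the calcium pump that phospholamban restrains, had 706 and 1033 CPM (-0.55), and Itpr1, the receptor that releases stored calcium, 179 and 196 CPM (-0.13). Of receptor and cyclic nucleotide genes, 0 of 12 were higher and 4 lower. Gucy1a3, a subunit of the nitric oxide receptor, had 345 and 740 CPM (-1.10), and Ednra, the endothelin receptor, 21 and 66 UMIs (-1.43), while the regulators of G protein signalling Rgs5 (-0.07) and Rgs4 (0.14) had ratios near 0. These 4 are themselves mural gate markers, so their levels are not independent of the gate, and Gucy1a3 was also lower in pericyte-like (-1.13) and endothelial-like cells (-1.29).

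Of regulators of the contractile programme, 2 of 12 were higher and 3 lower. Tgfb1, a growth factor that promotes smooth muscle differentiation, had 30 and 8 UMIs (2.05). Its ratio was also above 0, with intervals above 0, in endothelial-like (0.34), astrocyte-like (0.79), microglia-like (0.35) and oligodendrocyte-like cells (0.74). In pericyte-like (0.17) and border macrophage-like cells (0.73) the interval holds 0. Mkl2, a coactivator of serum response factor, had 12 and 28 UMIs, a ratio of -1.0 whose interval holds 0. Myocd, the coactivator that drives smooth muscle genes, was among the 3 lower at 20 and 37 UMIs, with a ratio of -0.67 whose interval also holds 0. Mef2c had 400 and 391 CPM (0.03) and Notch3, a receptor that mural cells need to mature and a mural gate marker, 425 and 369 CPM (0.20). Immediate early genes, which dissociation can raise, summed to 10932 CPM in EMF_AuNPs and 12123 CPM in control smooth muscle-like cells. The sums hide opposite directions. Of 16 such genes with at least 30 UMIs, 3 were at least 1.5-fold higher (Btg2 0.72, Nr4a1 0.72, Socs3 0.96) and 2 lower (Fos -0.79, Atf3 -1.23). The background over all genes is 16.8% and 13.2%.

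The genes whose profile was most like the mean of the 9 over 16 profiles (8 types with at least 50 cells in each of 2 libraries) were Pdlim3, Ngb, Arhgef7, Alx1, Ppp1r12c, Kcnk3, Mob2 and Crispld2, of 5805 genes with at least 20 CPM in smooth muscle-like cells that are neither members nor markers. Pdlim3, which encodes a protein of the actin-anchoring Z-disc, had a Pearson correlation of 0.975 and Crispld2, the last of the 8, 0.944. Pdlim3 had 237 CPM in EMF_AuNPs and 196 CPM in control smooth muscle-like cells and 3.98 and 2.78 CPM in pericyte-like cells. Each of the 9 had a correlation of 0.884 (Pln) to 0.983 (Tpm2) with the mean of the other 8. The profiles share libraries and free RNA, so these values are descriptive.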

How the data were processed

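Single cells of the mouse hippocampus were measured in 1 EMF_AuNPs and 1 control library, grouped by the treatment label. The deposited matrices hold raw counts of UMIs per gene and barcode, which per the submitters' processing notes the authors made on mm10 with STAR and Cell Ranger 3.0.2. The gene annotation behind them is not given in the sources used here, and 0 mitochondrial genes are listed. The 9 genes and all lists were chosen with earlier results of these data known.

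A minimum of 500 UMIs and 250 genes per cell left 6996 EMF_AuNPs and 21425 control cells. Types were gated with 218 markers in 20 lists, and the gate minimums were set on histograms of marker counts after the data were seen. Possible doublets were cells that met gates of more than 1 lineage. Named pathway genes were the 2 with most UMIs and the 2 with the largest ratio of each group, of which 1 is not reported here; Ppp1r12a, Myocd, Lmod1, Mrvi1, Actn1, Palld, Nexn and Csrp2 were named after their values were seen. UMIs were summed per library and type and divided by the type's total (CPM). Log2 ratios have 1 CPM added, and their intervals are exact conditional binomial ones of the ratio with nothing added. CPM intervals are Poisson, shares Clopper-Pearson, and a count of 0 allows up to 3 counts. A gene was called higher or lower from 1.5-fold on, with no test. Gene coordinates are from GENCODE on mm10. The ratio and its interval were tested on simulated data. Python 3.11.15, scipy 1.17.1 and scanpy 1.11.5 were used. Alternatives changed the gate, depth, scaling, pseudocount and UMI minimum.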

Additional observations from a re-analysis of the deposited data

How the results depend on the processing

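Of the alternatives run, none changed the direction of any smooth muscle-like over pericyte-like ratio, and in smooth muscle-like cells Myh11 stayed below 0 in 13 of 13 (-0.86 to -0.40, past 1.5-fold in 11) and Acta2 above 0 in 12 of 12 (0.28 to 0.58, never past 1.5-fold); the UMI minimum is among these alternatives and cannot change a ratio. With 1 more marker asked for, the ratios of Acta2 (-0.41), Tagln (-0.87) and Pln (-1.18) in pericyte-like cells reversed, and the median of the 9 there became -0.33, against 0.40 over all 9. The cause was not tested. The median of the 9 in smooth muscle-like cells became 0.32 with clusters made without the 9 genes and -0.23 in cells of 1000 to 3000 UMIs, an alternative added after seeing the data, against 0.09. The median log2 ratio of smooth muscle-like over pericyte-like cells in EMF_AuNPs became 7.11 with cells of more than 1 lineage kept. With 100 UMIs as the minimum, fewer pathway genes were counted, with 3 higher and 5 lower in smooth muscle-like cells and 4 higher in pericyte-like cells. The share of the UMIs of the 9 genes held by smooth muscle-like cells, in EMF_AuNPs and in control, became 66.7% and 49.0% with 1 more marker, 48.1% and 45.4% with 1 fewer, 63.6% and 49.3% with cells of more than 1 lineage kept, 62.3% and 49.3% with at least 1000 UMIs, and 79.1% and 70.3% with clusters. The 9 genes as a share of the UMIs of smooth muscle-like cells became 4.88% in control with 1 more marker, 5.44% in EMF_AuNPs and 5.19% in control with 1 fewer, 4.95% in control with cells of more than 1 lineage kept, and 4.65% in EMF_AuNPs and 3.98% in control with clusters.

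Leaving out cells called by Scrublet was not run, since it called 1 cell in each library. No paired analysis was possible because there is 1 library per group. The scarce genes of pericyte-like cells rest on 1 to 33 UMIs per library, and smaller differences there would not be detectable at this depth. The treatment cannot be told apart from the mice, dissection and preparation of each library.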
